A study of Mus musculus with 16 samples.

Results

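The interleukin-1 (IL-1) axis described here is a set of 3 genes. Il1b encodes the cytokine IL-1 beta, Casp1 encodes caspase-1, the protease that cuts the IL-1 beta precursor into its active form, and Il1r2 encodes the decoy receptor that binds the cytokine without signalling. They were chosen by name from genes that had already passed the authors' comparison of evening with morning, so the values that chose them were the deposited log2 fold changes and s-values given below. These values are therefore a description, and no test of them is added. All 3 genes were found in the authors' deposited CD11c-low table, which lists 1340 genes, and 1 of them, Il1r2, in that for CD11c-high cells, which lists 172. Together the tables hold 1413 different genes.

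The RNA came from sorted eosinophils of the mouse duodenal lamina propria, the tissue layer beneath the gut epithelium. There were 16 libraries of 1000 cells each, in 4 groups of 4, defined by surface CD11c (high or low) and by zeitgeber time (ZT, hours after lights on). ZT3 is titled AM and ZT15 PM. The sample titles repeat the same replicate numbers in every group, without saying what the numbers stand for. The labels name no strain, age or genotype. They do not say whether the libraries of one group came from separate mice nor whether the same mice gave both subsets. The s-values then rest on the spread between these libraries, which may be technical.

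Signalling by IL-1 starts when IL-1 alpha (Il1a) or IL-1 beta binds the receptor encoded by Il1r1, which recruits a shared partner chain and, through the adaptor Myd88, IRAK kinases and Traf6, turns on NF-kB and AP-1. The pathway is restrained outside the cell by the receptor antagonist (Il1rn) and by the decoy receptor, whose cytoplasmic tail lacks the signalling domain. Inside the cell it is restrained by inhibitors of NF-kB and by proteins such as tristetraprolin (Zfp36), which bind AU-rich elements and speed the decay of cytokine mRNAs. IL-1 beta is made as a precursor that needs an inflammasome, a complex that activates caspase-1, whereas the IL-1 alpha precursor is already active. In the gut, granulocytes and macrophages are known sources of IL-1.

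The stretches of DNA before each gene's transcription start are shown because the series compares times of day, and the core clock factors CLOCK and BMAL1 bind the E-box CACGTG. The sequences are RefSeq's, on GRCm38.p6, 250 bases up to the base before the listed start, 5′ to 3′ on the gene's own strand. The windows lie, for Il1r2, at chr1:40085843-40086092 on the + strand, for Il1b at chr2:129371140-129371389 on the - strand and for Casp1 at chr9:5298267-5298516 on the + strand. The processing notes name GRCm39, so these positions belong to the RefSeq sequences only. Capitals mark every match to one of 8 motifs, which are spelled out after the sequences.
Il1r2: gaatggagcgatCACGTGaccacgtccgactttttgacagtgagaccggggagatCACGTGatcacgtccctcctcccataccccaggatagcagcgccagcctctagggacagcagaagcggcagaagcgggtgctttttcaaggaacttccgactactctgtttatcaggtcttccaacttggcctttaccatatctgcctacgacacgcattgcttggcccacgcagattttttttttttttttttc
Il1b: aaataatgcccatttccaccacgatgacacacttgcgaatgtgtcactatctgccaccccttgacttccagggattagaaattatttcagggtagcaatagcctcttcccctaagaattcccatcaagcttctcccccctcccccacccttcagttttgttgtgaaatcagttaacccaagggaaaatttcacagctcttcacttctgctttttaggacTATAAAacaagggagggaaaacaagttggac
Casp1: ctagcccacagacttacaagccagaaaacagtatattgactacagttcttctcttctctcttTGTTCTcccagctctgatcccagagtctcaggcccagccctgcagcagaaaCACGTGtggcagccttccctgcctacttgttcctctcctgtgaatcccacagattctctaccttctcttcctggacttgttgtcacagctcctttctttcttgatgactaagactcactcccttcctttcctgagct

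CACGTG stood 2 times before Il1r2, beginning 238 and 195 bases before the start, and once before Casp1, beginning 137 bases before it. Casp1 also had TGTTCT, a half-site of the glucocorticoid receptor, beginning 188 bases before the start. The Il1b window held no CACGTG and had a TATA box beginning 31 bases before the start. Of 32851 promoter windows of the same length, 6.02% held CACGTG, 16.1% TGTTCT and 12.4% the TATA box TATAAA on either strand. Of the 23 listed IL-1 pathway genes with a RefSeq promoter, 4 held CACGTG in at least one window (Casp1, Cxcl3, Gadd45b and Il1r2). Of all 27025 genes with a promoter, 6.86% did. The 4 genes include the members Casp1 and Il1r2 and are too few to read against that share. The share also covers genes that are not listed here. The other motifs searched, on both strands and with N for any base, had no match in the 3 windows: GGGNNNTTC for NF-kB, TGANTCA for AP-1, TGACGTCA for cAMP-responsive factors, TTANGTAA for the D-box factors and AGGTCA for ROR and REV-ERB. The shares of all windows that hold them were 11.8%, 6.75%, 1.55%, 2.06% and 14% in that order. Overlaps between motifs were allowed, and the matches found do not overlap. A match is a run of letters, not a bound site, and binding was not measured.

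**Figure D1:**
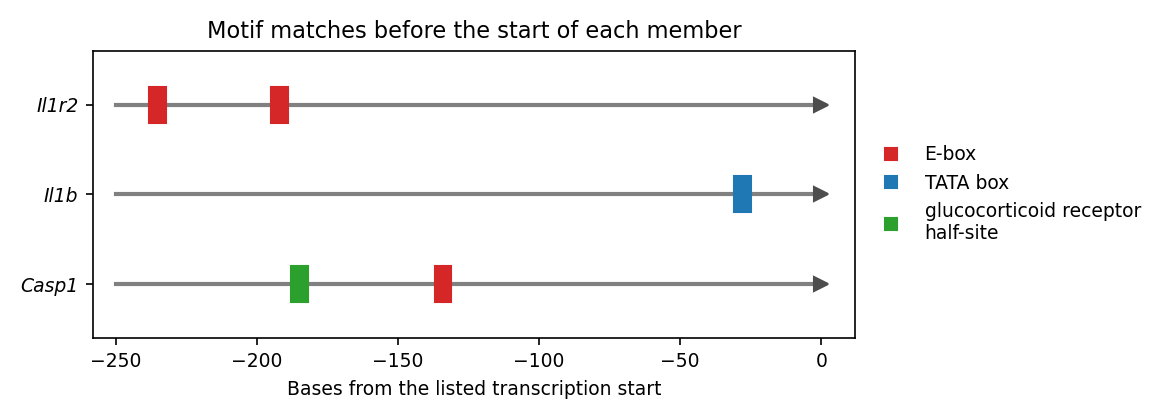
Positions of motif matches in the 250 bases before the listed transcription start of the 3 genes (x axis, bases from the start; arrowheads, the start). Red boxes are CACGTG, at 238 and 195 bases before Il1r2 and 137 before Casp1, the green box is TGTTCT, 188 before Casp1, and the blue box is TATAAA, 31 bases before Il1b.

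All 3 members rose at ZT15 in CD11c-low cells. Of all genes listed for these cells, 52.2% rose, and since only genes with an s-value under 0.05 are listed, the number of genes tested is not known. An s-value estimates how often the sign of a change is wrong, averaged over that gene and all genes ranked above it. Changes are the authors' log2 values of ZT15 over ZT3, taken here as shrunken. The ± gives the error deposited with each, taken as its posterior standard deviation (SD). Values of single libraries were not analysed here, because the tables hold none, so overlap between the groups of 4 cannot be read. In these sorted pools, more cells of a type and more RNA per cell cannot be told apart.

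Il1r2 (ENSMUSG00000026073.14), the decoy receptor gene, had a log2 change of 1.04 ± 0.18 in the authors' deposited CD11c-low table (s-value 1.65e-09). This is a 2.05-fold increase with a 95% interval of 1.61 to 2.62, taken from the posterior SD as for a normal distribution. By s-value it stood at place 9 of the 1340 genes in the authors' deposited table. By size of increase it stood at place 14, and at place 5 once immunoglobulin segments and genes with a mean normalised count under 50 were left out.

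Il1b (ENSMUSG00000027398.14) had a log2 change of 0.41 ± 0.15 in the authors' deposited CD11c-low table, a 1.33-fold increase (95% interval 1.09 to 1.63, s-value 0.000439). The median among genes that rose there was 0.35, immunoglobulin segments left out. The increase of Il1b was thus close to that of a typical listed gene, and it stood at place 245 by size among the 700 that rose. Exons of an RNA on the opposite strand, Il1bos, overlap those of Il1b in GENCODE M21, and the sources used here do not say whether the counting used strand. Reads of Il1b and Il1bos may therefore not be told apart.

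Casp1 (ENSMUSG00000025888.7) had a log2 change of 0.52 ± 0.29 in the authors' deposited CD11c-low table, a 1.44-fold increase. Its 95% interval of 0.970 to 2.13 includes no change, although its s-value was 0.00843. The s-value averages over higher-ranked genes and counts one tail only, and the false sign rate of Casp1 itself was 0.0258. Casp1 had a larger posterior SD than the median listed gene of that table (0.22). Its mean normalised count of 175 was also below the table's median of 332.

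The members differed widely in level. The mean normalised count is the authors' average, over the libraries of a subset, of counts divided by size factors. In the authors' deposited CD11c-low table it was 22952 for Il1b, 6311 for Il1r2 and 175 for Casp1. Il1b held place 4 of 1340 by mean normalised count and Il1r2 place 26, while Casp1 held place 956. Divided by the length of one coding transcript per gene in GENCODE M21, the level of Il1b was 16926 normalised counts per kilobase, that of Il1r2 4448 and that of Casp1 117, against a median of 118 over the 1267 listed genes with a length. Per kilobase, the level of Il1b was 3.81 times that of Il1r2, and the level of Il1r2 was 38.0 times that of Casp1. No error can be given for these ratios, since the tables hold no spread of the levels. Levels per kilobase also take reads to cover the whole transcript, and the sources used here do not say whether they did. The count of Il1b may include reads of Il1bos.

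**Figure D2:**
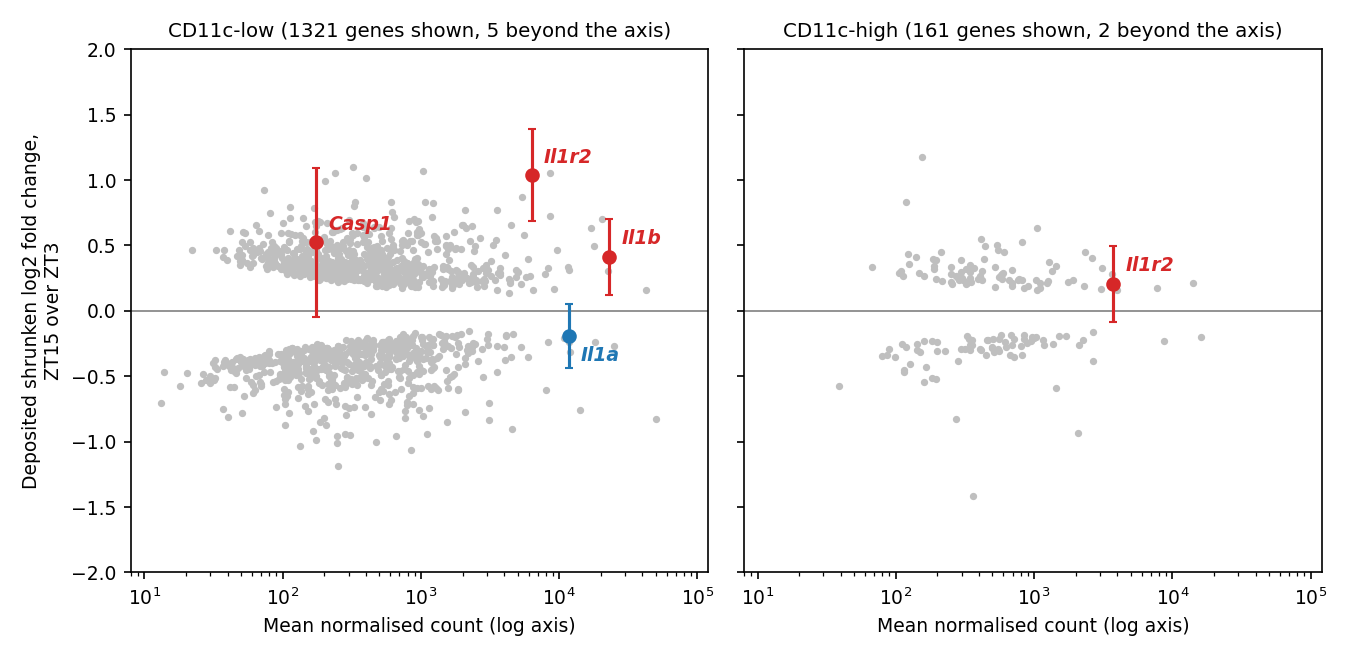
Mean normalised count (x, log axis) against the deposited log2 change at ZT15 over ZT3 (y) for listed genes, CD11c-low left and CD11c-high right, immunoglobulin segments left out. Red points are the members and the blue one Il1a, with bars of the 95% interval. In CD11c-low cells Il1r2 lies at 1.04 above most genes of its level, Il1b at 0.41 and Casp1 at 0.52, and no gene lies near 0 because only called genes are listed.

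In CD11c-high cells the change of Il1r2 was smaller, at 0.21 ± 0.15 in the authors' deposited table (s-value 0.0311). That is a 1.15-fold increase with a 95% interval of 0.944 to 1.41, which includes no change. Of all genes listed there, 54.1% rose. Il1r2 stood at place 99 of 172 by s-value and at place 82 of the 93 increases by size in the authors' deposited table, and the median increase was 0.27. Its mean normalised count there was 3735, place 6 of 172. The false sign rate of the gene itself, recovered from successive s-values, was 0.0619, which is above 0.05. Il1b and Casp1 are not in the CD11c-high table, so their changes in those cells were not analysed here. Il1r2 was thus nearer to the limit of listing in CD11c-high than in CD11c-low cells. The largest s-value listed for CD11c-high cells was 0.0499.

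Set side by side, the log2 change of Il1r2 was larger in CD11c-low than in CD11c-high cells by 0.83 ± 0.23 (the root of the summed squared posterior SDs, 95% interval 0.37 to 1.29). This error takes the 2 changes as independent, which is not known, since the same mice may have given both subsets. Of the 97 genes in both tables that are not immunoglobulin segments, Il1r2 had the largest difference in size. Rnf125 had nearly the same difference (0.829 against 0.831), so the first place is not particular to Il1r2. Among those 97 genes, however, 79 changed more in CD11c-low cells, so the direction of the difference was the usual one. The amount of shrinkage may differ between the tables. When each change was divided by the median size of change of the shared genes in its own table (0.46 in CD11c-low and 0.26 in CD11c-high cells), Il1r2 stood at 2.25 median changes in CD11c-low and 0.799 in CD11c-high cells. Its difference in these units, 1.45 ± 0.69, took place 8 of 97. The difference was not tested, since both contrasts took part in the choice of the gene.

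The genes with the most similar pair of log2 changes, by Euclidean distance over the 2 tables with predicted and RIKEN-named genes left out, were Rnf125, Gpr183, Dgat1, H2-D1 and Fos. Rnf125, a ubiquitin ligase gene, lay at a distance of 0.042, with 1.07 ± 0.17 in CD11c-low and 0.24 ± 0.17 in CD11c-high cells in the authors' deposited tables. Gpr183, which encodes an oxysterol receptor that guides cell migration, lay at 0.063, with 1.01 ± 0.22 and 0.26 ± 0.22 in the same order in the authors' deposited tables. Dgat1, the gene of an enzyme of triglyceride synthesis, followed at 0.204, the class I gene H2-D1 at 0.321 and the AP-1 gene Fos at 0.334. The differences between Il1r2 and the first pair, Rnf125 and Gpr183, are smaller than the posterior SDs. Among the genes left out of this order, D030028A08Rik lay at 0.110, between Gpr183 and Dgat1. A likeness over 2 values describes these tables and says little else.

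**Figure D3:**
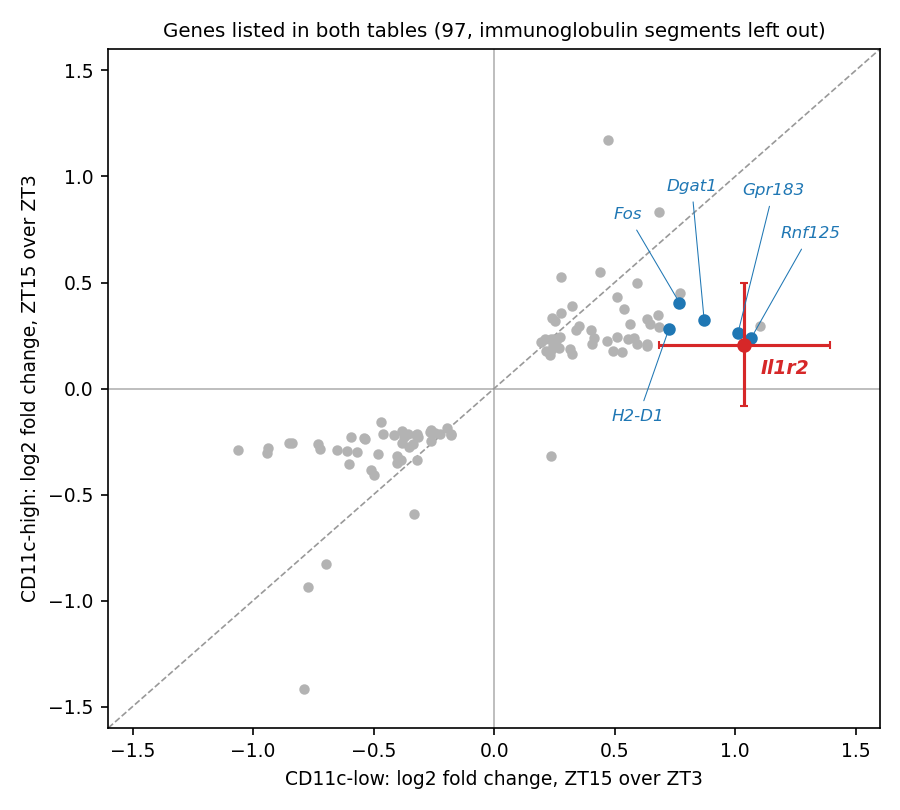
Deposited log2 change at ZT15 over ZT3 in CD11c-low cells (x) against CD11c-high cells (y) for the 97 genes in both tables, immunoglobulin segments left out. Il1r2 (red, bars of the 95% interval) lies at 1.04 and 0.21, below the dashed line of equal change, and the 5 nearest genes are blue, with predicted and RIKEN-named genes such as D030028A08Rik left out of that choice.

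The pathway around them was read through a list of 136 genes that includes the 3 members. Of these, 26 are in the CD11c-low table, 15 higher and 11 lower at ZT15. The share that rose, 57.7%, was near the 52.2% of all listed genes. The median change of the 26 was 0.25 and that of all listed genes 0.21. The 5 genes of the list in the CD11c-high table were 4 higher and 1 lower, against 54.1% higher overall. Genes of the list that are not in a table, among them Il1r1, Il1rn, Il1rap, Nlrp3, Pycard, Gsdmd, Il18, Myd88 and Traf6 in both, were not analysed here. Of the 136 symbols, 131 were found in a reference of gene names. The others, Il36a, Il36b, Il36g, Il36rn and Card16, could have been missed through naming.

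The 2 IL-1 ligands moved in opposite directions in CD11c-low cells. Il1a, which encodes IL-1 alpha, had a log2 change of -0.19 ± 0.12 in the authors' deposited table (0.876-fold, 95% interval 0.739 to 1.04, s-value 0.0230), while Il1b rose. Its level was also high, with a mean normalised count of 11697, place 14 of 1340 in the authors' deposited table. Per kilobase, the level of Il1b was 2.86 times that of Il1a. The decrease of Il1a is the less certain of the pair, with a false sign rate of its own of 0.0620 against 0.00189 for Il1b. Of the 8 receptor genes of the IL-1 family on the list, Il1r2 was the one listed in either table.

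Of 28 genes for inflammasomes, processing and release, 3 are in the CD11c-low table. Nek7, whose product binds NLRP3 and is needed for that inflammasome, fell by 0.67 ± 0.29 in the authors' deposited table (s-value 0.00172), opposite to Casp1. Txnip, a thioredoxin-binding protein gene, rose by 0.28 ± 0.21 in the authors' deposited table. In CD11c-high cells the one listed gene of this role was Gsdme, which encodes a pore-forming gasdermin, at 0.25 ± 0.21 in the authors' deposited table.

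Receptor-proximal signalling had 4 of 28 genes in the CD11c-low table, 3 higher and 1 lower. Tollip, which encodes an inhibitor of IRAK signalling, fell by 0.36 ± 0.23 in the authors' deposited table. Tab2, the gene of an adaptor of the TAK1 kinase, rose by 0.38 ± 0.29, and Map3k3 by 0.31 ± 0.23 in the authors' deposited table. Sqstm1, which encodes the scaffold p62, rose by 0.23 ± 0.14 in the authors' deposited table. All 4 changes had s-values between 0.0164 and 0.0313.

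NF-kB and AP-1 factor genes were split 3 and 3 in CD11c-low cells. Fos rose by 0.77 ± 0.14 and Nfkb1, which encodes the p105 precursor of the p50 subunit, by 0.35 ± 0.18 in the authors' deposited table. Rel, the c-Rel gene, fell by 0.51 ± 0.21, and Jund by 0.58 ± 0.31 in the authors' deposited table. In CD11c-high cells Fos (0.41 ± 0.18) and the NF-kB inhibitor gene Nfkbie (0.27 ± 0.24) rose in the authors' deposited table.

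Of 28 inflammatory target genes, 7 are in the CD11c-low table, 4 higher and 3 lower. The neutrophil-attracting chemokine genes Cxcl3 and Cxcl2 went in opposite directions, with 0.82 ± 0.22 and -0.24 ± 0.13 in the authors' deposited table. Ptgs2, which encodes cyclooxygenase 2, fell by 0.74 ± 0.23, and Mmp9, a matrix protease gene, rose by 0.24 ± 0.13 in the authors' deposited table. In CD11c-high cells Plaur, the urokinase receptor gene, fell by 0.38 ± 0.21 in the authors' deposited table.

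Feedback inhibitors and mRNA decay genes had 3 of 15 members in the CD11c-low table, and both decay factors among them fell. Zfp36 fell by 0.41 ± 0.15 and Zc3h12a, which encodes the endonuclease regnase-1, by 0.53 ± 0.31 in the authors' deposited table. Tnip1, an NF-kB inhibitor gene, rose by 0.32 ± 0.27 in the authors' deposited table, with a false sign rate of its own of 0.113. That rate was also above 0.05 for Txnip, Tab2 and Map3k3 in CD11c-low and for Gsdme and Nfkbie in CD11c-high cells.

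**Figure D4:**
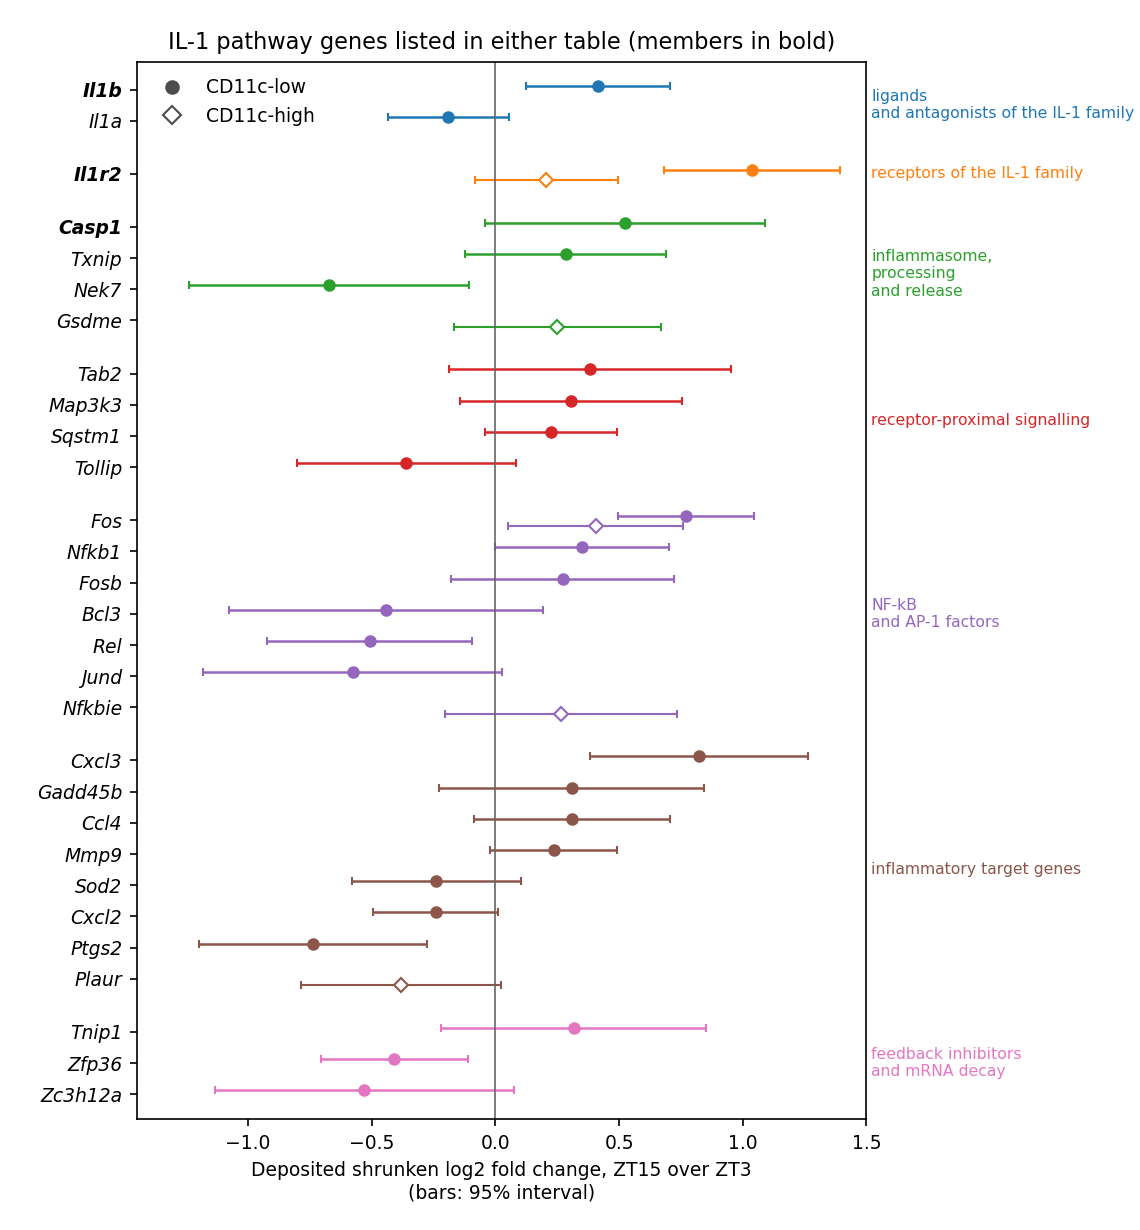
Deposited log2 change at ZT15 over ZT3 (x) of each IL-1 pathway gene listed in a table, grouped by role, with bars of the 95% interval. Filled circles are CD11c-low and open diamonds CD11c-high cells. Il1r2 in CD11c-low cells lies furthest to the right at 1.04, Il1b and Il1a lie on opposite sides of 0, and Nek7 and Ptgs2 lie furthest to the left.

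Because Zfp36 binds AU-rich elements, the 3′ UTRs of the listed pathway genes were searched for TATTTAT on the transcript's strand, using GENCODE M21 (GRCm38) and the coding transcript with the longest coding part. The Il1b 3′ UTR, 459 bases long, held 3 matches, and that of Il1a, 1101 bases long, also held 3. The windows of 27 bases with most matches are shown, with matches in capitals, at chr2:129364807-129364833 for Il1b and chr2:129300108-129300134 for Il1a, both on the - strand.
Il1b: cacttaccTATTTATTTATgTATTTAT
Il1a: tatctatgTATTTATaaataTATTTAT

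In Il1b all 3 matches lay in this window, which begins 196 bases after the stop codon, and 2 of them overlapped. In Il1a 2 of the 3 matches lay in the window shown for it, and these did not overlap. The annotated 3′ UTRs of Il1r2 (24 bases) and Casp1 (88 bases) held none, and they are short. Of the 26 listed pathway genes, 16 held TATTTAT, 7 of them higher and 9 lower at ZT15 in CD11c-low cells. Of 19171 genes with a 3′ UTR of at least 100 bases, 27.3% held it. The 26 pathway genes were not held to that minimum, and UTR length was not matched in this comparison.

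Il1b and Il1r2 are also expressed by neutrophils and monocytes, so markers of other cells are given beside them. Of 18 neutrophil marker genes, 3 are in the CD11c-low table: Hdc, Mmp9 and Trem1, at 0.58 ± 0.20, 0.24 ± 0.13 and 0.34 ± 0.24 in the authors' deposited table. All 3 are higher at ZT15, where 52.2% of all listed genes are, and 3 genes are too few to read against that share. Eosinophils can express Hdc and Mmp9 as well. S100a8, S100a9, Ly6g, Csf3r and Cxcr2 are not in either table and were not analysed here. Of 18 monocyte and macrophage markers, Cd68 (0.52 ± 0.30) is in the authors' deposited CD11c-low table, and in CD11c-high cells Hdc (0.24 ± 0.19) is the one listed gene of both lists. Of 15 eosinophil markers, 5 are in the CD11c-low table, 4 higher and 1 lower at ZT15. Clec4a4 (0.47 ± 0.15), Csf2rb (0.33 ± 0.16), Alox15 (0.26 ± 0.14) and Siglecf (0.23 ± 0.13) rose and Adgre1 (-0.29 ± 0.14) fell in the authors' deposited table. Ccr3, Epx, Prg2 and Itgax, which encodes CD11c, are in neither table, so the sort could not be checked against them. Of the marker lists for still other cells, the CD11c-low table holds 1 lower gene of 12 for dendritic cells, 1 higher of 16 for T cells and NK cells, 2 higher of 16 for B and plasma cells (Bank1 and Ighm), 1 lower of 16 for epithelium and 0 of 12 for mast cells and basophils. The T and NK cell gene is Gzma, a granzyme gene, which the authors' deposited table lists with a fitted log2 change of 20.99 ± 3.33 and 30.4 mean normalised counts. No fold is read from a fitted value of that size. Immunoglobulin segments, which come from B and plasma cells and were left out of the plots and the comparison between subsets, numbered 14 in the CD11c-low table (8 higher, 6 lower) and 9 in the CD11c-high table (7 higher, 2 lower). The CD11c-high table holds 1 higher gene of the B and plasma cell list (Xbp1) and 0 of the others. The summed level of a marker list cannot be had from tables of called genes. Other cells' part in the changes was not tested.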

How the data were processed

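RNA was measured in 16 libraries of sorted duodenal eosinophils. Per the submitters' processing notes, STAR 2.7.10b, DESeq2 1.38.3 and GRCm39 were used, with no role given. No source used here gives the counting, annotation or shrinkage method. Per the file headers, each of the 2 tables, 1 per CD11c subset, holds for called genes a mean normalised count (a signal deposited by the authors as an average over libraries), a log2 fold change with its error, and an s-value. The deposited log2 changes are taken as shrunken, because s-values come with shrunken estimates. Direction (PM over AM) comes from the tables' names. The depth of each library is unknown, and no interval that needs it was computed.

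The members and lists were chosen with earlier results of these data known, and the motifs after the tables were seen. Genes named are the members, up to 4 listed genes of each role with the smallest s-values (and any singled out, chosen after their values were seen), and the 5 nearest to Il1r2. Scripts in Python 3.11.15 (SciPy 1.17.1, NumPy 2.4.6, pandas 2.3.3) computed 95% intervals (normal, from the posterior SD), ranks, counts by direction, each gene's own false sign rate (tested on simulated data), levels per kilobase and motif matches. No test was run.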

Additional observations from a re-analysis of the deposited data

How the results depend on the processing

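All 3 members stayed called as higher in CD11c-low cells at an s-value under 0.01, with an own false sign rate under 0.05 and at a mean normalised count of at least 50. These alternatives for the members were chosen after seeing the data. The members were picked from genes called by these same s-values, so staying called is no separate support. Casp1, with the largest s-value of the 3, stood at place 476 of the 1340 listed genes. All genes ranked above Casp1 by s-value also stay under 0.01, so staying called does not set the members apart. The share of all listed genes that stays under each setting was not computed, for the members or for the pathway list. In CD11c-high cells 0 members were called at an s-value under 0.01 and 0 at an own false sign rate under 0.05, since Il1r2 was lost. The pathway list in CD11c-low cells had 6 higher and 6 lower genes at an s-value under 0.01, with Il1a among those lost, and 8 higher and 8 lower at an own false sign rate under 0.05, again without Il1a. In CD11c-high cells 1 higher gene (Fos) and 1 lower gene (Plaur) were left under either. A mean normalised count of at least 50 removed no listed gene of the pathway. The difference of Il1r2 between subsets was 1.45 ± 0.69 in units of the median change of shared genes, against 0.83 ± 0.23 in log2. The place of Il1r2 by size of increase in CD11c-low cells went from 14 to 5 without immunoglobulin segments and rare genes. No paired analysis was possible because the tables have no column for a single library, and leaving out a replicate was not run for the same reason. The number of libraries, 4 in each group, limits the precision.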

Other observations

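Il1r2 is a gene that glucocorticoids induce, and 4 of 18 other glucocorticoid-induced genes are in the CD11c-low table, 3 higher and 1 lower at ZT15, too few to read against the 52.2% of all listed genes that are higher. Cdkn1a, which encodes the cell-cycle inhibitor p21, rose by 0.68 ± 0.21, Tgm2, the tissue transglutaminase gene, by 0.49 ± 0.12 and Thbs1, the thrombospondin 1 gene, by 0.23 ± 0.12 in the authors' deposited table. Cxcr4, a chemokine receptor gene, fell by 0.47 ± 0.28 there. In CD11c-high cells Tgm2 was the one listed gene of this set, at 0.18 ± 0.13 in the authors' deposited table. Tsc22d3, Fkbp5 and Per1, which respond to glucocorticoids in most cells, are in neither table and were not analysed here. Of 12 targets of the IL-4 and IL-13 factor Stat6, 0 are in either table, so their changes were not analysed here.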
